A study of Drosophila melanogaster with 48 samples.

Results

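Glutathione S-transferases (Gst genes) and UDP-glycosyltransferases (Ugt genes) are the 2 large conjugating enzyme families of the fly. Their genes were taken as every row whose gene symbol began with Gst, or with Ugt followed by a digit, and whose mean normalised count was at least 10 in at least 1 of 6 tables. This left 66 genes, 33 Gst and 33 Ugt, out of 70 with such a symbol (35 in each family) and out of 10617 genes of any kind over the same minimum. Of the 4 genes under the minimum, GstD11 came nearest, with its highest mean at 7.14, while GstD6, Ugt36F1 and Ugt49B2 reached 3.38, 3.67 and 3.11. The members just inside it were GstE2, Ugt35E2, GstD4 and GstE4, with highest means of 11.2, 11.8, 15.1 and 17.2.

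Glutathione S-transferases join glutathione to electrophilic compounds, and UDP-glycosyltransferases join a sugar from a UDP-sugar to small lipophilic compounds. Both reactions make the compounds more soluble and belong to the conjugation phase of detoxification, and many members have substrates that are not known. In insects the gut meets plant toxins and insecticides first, and the fat body, the counterpart of liver and adipose tissue, stores fat and glycogen and makes blood proteins.

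RNA was sequenced from gut and fat body of mated adult females in a white Dahomey (wDah) background. S106>Xbp1s flies carried the S106 driver and a transgene for spliced Xbp1, S106>Xbp1U flies carried the driver and an unspliceable Xbp1, and S106>Wdah flies carried the driver alone. S106 is a GeneSwitch driver of gut and fat body that works only when the drug RU486 is fed, so all flies shared the driver. Flies of each genotype ate food with RU486 (RU+) or with the vehicle only (RU-) over 7 days, until dissection on day 9. The labels list 48 libraries in 12 groups of 3 to 5, and each library pooled 12 organs, the fat body with the abdominal cuticle on it. Gut had 3 RU+ and 3 RU- libraries in S106>Xbp1s, 4 and 4 in S106>Xbp1U, and 4 and 5 in S106>Wdah, and fat body had 4 and 4, 4 and 3, and 5 and 5.

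Each of the 6 tables gave 1 mean normalised count per gene over the RU+ and RU- libraries of a genotype and tissue, and no value of a single library. The RU+ against RU- change of these genes was therefore not analysed here, the spread between libraries is unknown, and no test between tissues or genotypes could be run. In place of a test, the text gives the value of each of the 3 genotypes, always as S106>Xbp1s, S106>Xbp1U and S106>Wdah, and sets the members beside all genes. A level is a mean as a share of its table's sum, in parts per 1000000 (ppm). A level per kb is that divided by the gene's exonic length, used for most comparisons of the abundance of genes and families. The means summed to between 22483518 and 25130044 per table, a stand-in for depth, and the tables were normalised separately, so that levels are set across them only as such shares. Called higher in a tissue means more than 2-fold higher there in each of the 3 genotypes.

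The tissues matched their labels by most of the marker genes. All 9 midgut markers measured were higher in gut, among them the trypsins alphaTry and betaTry, and 9 of 10 fat body markers were higher in fat body. The exception was Fst, which was higher in gut, and the fat body marker Lsp2 was low, at 1.81, 3.66 and 2.23 ppm in fat body. All 7 ovary markers and all 4 hemocyte markers were higher in fat body, all 4 enteroendocrine markers were higher in gut, and none of 6 muscle markers was called in either tissue. Of 8 Malpighian tubule markers, 2 were higher in gut, 1 in fat body and 5 in neither. In bulk tissue, fewer cells of a type and less RNA per cell cannot be told apart.

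Set beside all genes, both families leaned towards the gut, the Ugt genes more than the Gst genes. Over all 10617 genes, 12.7% were called higher in gut and 27.7% higher in fat body. Among Gst genes 13 of 33 (39.4%) were higher in gut, 5 (15.2%) were higher in fat body and 15 were called in neither. Among Ugt genes 20 of 33 (60.6%) were higher in gut, 8 (24.2%) were higher in fat body and 5 were called in neither. The share called higher in gut was thus above the background in both families, and the share called higher in fat body lay below it in Gst genes and near it in Ugt genes. With no fold limit, 16 Gst genes had the larger level in gut and 14 in fat body in every genotype, and 3 changed side. Of the Ugt genes, 21 had the larger level in gut and 10 in fat body, and 2 changed side. No share over all genes was computed without a fold limit, so these counts have no background.

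The size of the difference separated the families further. The median difference, as log2(level + 1) in gut minus fat body, was 1.93 over Ugt genes, with 1.99, 1.88 and 1.93 in the single genotypes. Over Gst genes the median of the same difference was 0.29, with 0.32, 0.15 and 0.38 in the single genotypes, and over all genes it was -0.43. With the tables scaled to each other by the median of ratios in place of the sum, the median over all genes moved to -0.06, and the members stood at 2.39 for Ugt genes and 0.62 for Gst genes. Under that scaling 20 Ugt and 15 Gst genes were higher in gut, as were 16.7% of all genes, and 6 Ugt and 3 Gst genes were higher in fat body, as were 19.8% of all genes. GstE6 and GstT4 gained a call in gut, and GstE1, GstO1, Ugt35D1 and Ugt49B1 lost theirs in fat body. Relative to all genes, both families therefore leaned towards the gut under either scaling. All genes include those of ovary and hemocytes, whose markers were higher in fat body, and their part in this background was not tested. With a 4-fold limit, 17 Ugt genes and 9 Gst genes were higher in gut, as were 8.69% of all genes. At that limit 6 Ugt genes and 2 Gst genes were higher in fat body, as were 13.7% of all genes.

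**Figure D1:**
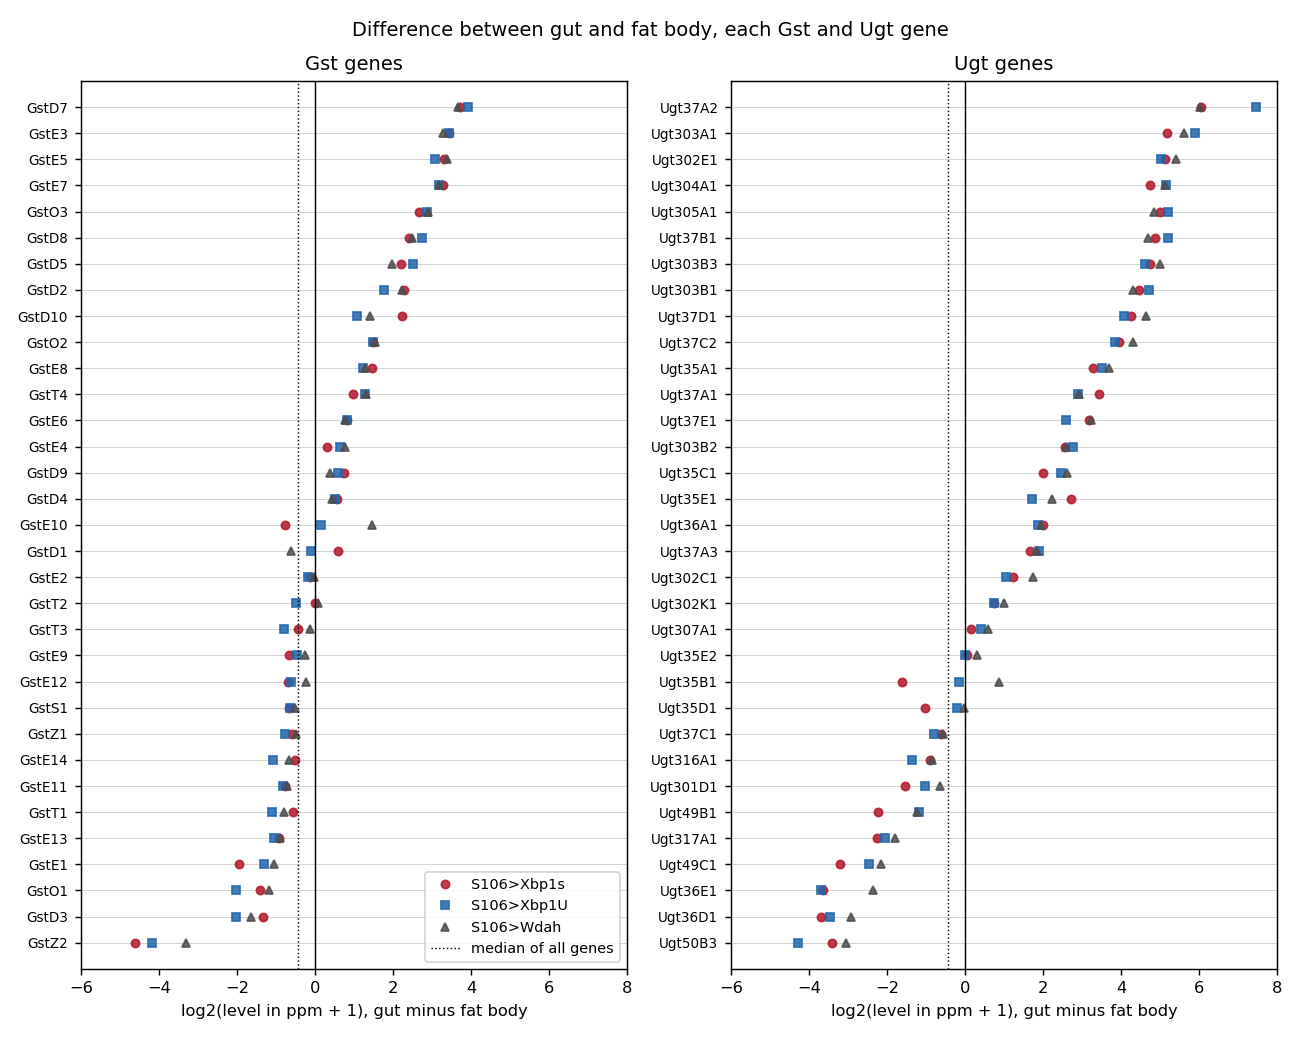
Difference between gut and fat body for each of 33 Gst genes (left) and 33 Ugt genes (right), as log2(level in ppm + 1) in gut minus fat body. Each point is 1 genotype (circle S106>Xbp1s, square S106>Xbp1U, triangle S106>Wdah), and the dotted line is the median of all genes (-0.43). The Ugt genes reach further to the right than the Gst genes, with Ugt37A2 at the top of the Ugt panel, and the genotypes of most genes lie close together.

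By abundance the Gst genes stood above the Ugt genes in both tissues. The exonic length had a median of 1764 bp in Ugt genes and 881 bp in Gst genes, so the families are compared per kb. The summed level in ppm per kb of the Ugt genes was 991, 1203 and 1013 in gut and 318, 314 and 226 in fat body. That of the Gst genes was 3109, 3493 and 3172 in gut and 1822, 2230 and 2268 in fat body. The ratio of these sums, gut over fat body, was 3.12, 3.84 and 4.48 for Ugt genes and 1.71, 1.57 and 1.40 for Gst genes. It was above 1 in both families in every genotype, and the ratio of the Ugt genes was the larger one each time.

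**Figure D2:**
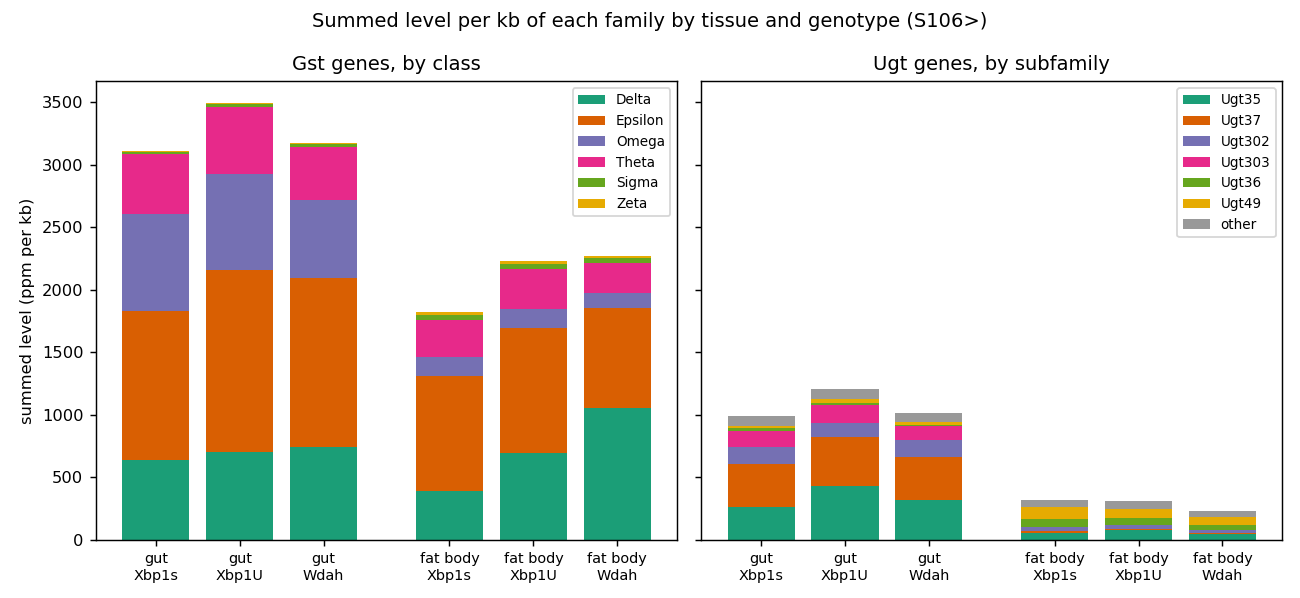
Summed level in ppm per kb of the Gst genes by class (left) and of the Ugt genes by numbered subfamily (right), in gut (first 3 bars of a panel) and fat body (last 3 bars) of each genotype, with both axes starting at 0. The Gst bars reach 3109 to 3493 in gut and 1822 to 2268 in fat body, against 991 to 1203 and 226 to 318 for the Ugt bars, and the Delta block of the fat body bars is smallest in S106>Xbp1s.

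A few genes held a large share of each family's level in ppm, here not divided by length. In gut, GstO3, GstD1 and GstT4 made up 49.4% of the summed Gst level, and Ugt35C1, Ugt37D1 and Ugt37A2 made up 47.8% of the summed Ugt level. In fat body, GstD1, GstE12 and GstE9 made up 61.2% of the Gst level, and Ugt49B1, Ugt35C1 and Ugt36D1 made up 41.2% of the Ugt level. By the mean level per kb, used further below, GstE3 ranked above GstT4 in gut and Ugt301D1 above Ugt36D1 in fat body. The 5 highest genes of each held 71.6% of the Gst and 62.8% of the Ugt level in gut, and 75.1% and 60.1% in fat body. By the mean percentile of the 3 genotypes among all 10617 genes, the median Ugt gene stood at 62.4 in gut and 21.5 in fat body. The median Gst gene stood at 56.3 in gut and 47.8 in fat body. These percentiles rank levels that were not divided by length. They set the tissues beside each other within a family and do not rank the families. A member needed a mean of 10 in 1 table only, so some members passed the minimum through 1 tissue alone.

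GstD1, a Delta class transferase long used as a reporter gene of oxidative stress and xenobiotic exposure, was among the most abundant members everywhere. Per kb it stood at 547, 614 and 665 ppm in gut and at 362, 662 and 1016 ppm in fat body, so that the tissue with the higher level differed between genotypes. GstO3 (Omega class) led the gut beside it, at 678, 650 and 526 ppm per kb, and its level was 597, 572 and 464 ppm in gut and 93.2, 77.4 and 61.3 ppm in fat body. GstE3, of the insect-specific Epsilon class, followed with 425, 485 and 421 ppm per kb in gut and 37.9, 43.3 and 42.0 in fat body. GstT4 (Theta class) had 405, 464 and 342 ppm per kb in gut and 206, 191 and 138 in fat body. Its level in gut was 1.96, 2.43 and 2.48 times that of fat body, which left it out of the genes called higher in gut by 1 genotype, and it was called under the median of ratios. GstE12 and GstE9 were the fat body's most abundant Epsilon genes, GstE12 with 254, 262 and 261 ppm per kb in gut and 412, 400 and 305 in fat body, and GstE9 with 197, 237 and 203 in gut and 315, 326 and 245 in fat body. Neither reached 2-fold in any genotype.

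Among the Ugt genes of the gut, Ugt35C1 had the highest level, 150, 318 and 219 ppm per kb in gut against 37.2, 57.0 and 35.1 in fat body. Ugt37D1 came next, with 163, 147 and 173 ppm per kb in gut and 8.02, 8.22 and 6.50 in fat body. Ugt37A2 had 109, 168 and 114 ppm per kb in gut and 1.07, 0.374 and 1.19 in fat body, the widest difference of any member on the log2(level + 1) scale. These orders were not the same in all genotypes: Ugt37D1 was above Ugt35C1 in S106>Xbp1s gut. The fat body had another leading set. Ugt49B1 led it on average, with 70.4, 51.0 and 40.3 ppm per kb, and its level was 25.3, 38.5 and 29.4 ppm in gut and 124, 89.4 and 70.8 ppm in fat body. By the mean of the genotypes it was followed in fat body by Ugt35C1, which stood above it in S106>Xbp1U, and then by Ugt301D1 with 29.6, 36.8 and 24.4 and Ugt36D1 with 37.0, 23.9 and 24.9 ppm per kb. Ugt301D1 and Ugt36D1 changed places between genotypes.

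Of the Gst classes, Delta (6 of 9 genes), Omega (2 of 3) and Epsilon (5 of 14) held the 13 genes called higher in gut. No Theta gene (4 genes) was called in either tissue, though GstT4 was under the median of ratios, nor was GstS1, the only Sigma class gene, at 52.5, 52.9 and 58.8 ppm in gut and 83.9, 83.0 and 83.9 in fat body. On the log2(level + 1) scale GstD7 lay furthest towards the gut of the Gst genes, with 14.7, 15.5 and 13.3 ppm in gut and 0.184, 0.0908 and 0.126 in fat body. Its neighbour GstD8 was similar at a lower level, 4.84, 6.06 and 4.98 ppm in gut and 0.0950, 0.0495 and 0.0580 in fat body. In the Epsilon class the genes furthest towards the gut on that scale were GstE3, whose fat body level was 8.90%, 8.92% and 9.96% of its gut level, GstE5, with 6.82%, 9.01% and 6.11%, and GstE7, with 9.59%, 10.6% and 10.6%. GstE4 had a like share, 11.1%, 5.69% and 4.29%, at levels under 1 ppm.

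The 5 Gst genes higher in fat body came from 4 classes. GstZ2 was the clearest, with 0.789, 0.878 and 0.834 ppm in gut and 42.6, 32.8 and 17.2 in fat body, which put the fat body 54.0, 37.4 and 20.6 times above the gut. The Zeta class is known from mammals for an isomerase of tyrosine breakdown, maleylacetoacetate isomerase. GstD3 had 1.58, 1.62 and 2.79 ppm in gut and 5.50, 9.69 and 10.8 in fat body, the one Delta gene of this direction. GstO1 had 5.05, 4.92 and 7.59 ppm in gut and 15.0, 23.2 and 18.4 in fat body, and GstE1 had 12.7, 25.8 and 28.3 in gut and 51.8, 65.1 and 59.8 in fat body. GstO1 and GstE1 were not called under the median-of-ratios scaling. GstE14, an enzyme of ecdysone production, was the last of the 5 and was low in both tissues, at 0.0359, 0.0472 and 0.157 ppm in gut and 0.473, 1.20 and 0.831 in fat body.

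Several numbered Ugt subfamilies had their called genes in 1 direction. All 4 Ugt303 genes, all 3 Ugt302 genes and 7 of 8 Ugt37 genes were higher in gut, with Ugt37C1 higher in fat body, while both Ugt49 genes and 2 of 3 Ugt36 genes were higher in fat body, the remaining one, Ugt36A1, being higher in gut. Of the Ugt49 genes, Ugt49B1 was no longer called under the median-of-ratios scaling. Ugt35 was mixed, with 3 of 6 genes higher in gut and 1 in fat body. That 1 gene, Ugt35D1, had means under 10 in 5 of the 6 tables, and it too was not called under that scaling. Subfamily numbers follow sequence similarity, so these genes are relatives as well as, in part, neighbours on the chromosome.

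At the gut end, Ugt37A2 had 187, 288 and 195 ppm in gut and 1.82, 0.640 and 2.04 in fat body, 102, 450 and 95.7 times apart. Ugt303A1 had 95.5, 107 and 85.6 ppm in gut and 1.67, 0.811 and 0.766 in fat body. Ugt302E1 had 108, 101 and 114 ppm in gut and 2.15, 2.15 and 1.70 in fat body. These 3 genes, with Ugt304A1 at 66.9, 59.3 and 52.8 ppm in gut and 1.52, 0.692 and 0.549 in fat body, were the Ugt genes furthest towards the gut on the log2(level + 1) scale, by 6.51, 5.56, 5.18 and 5.01. Ratios above 50-fold in at least 1 genotype were reached by 11 Ugt genes and 2 Gst genes. The share of all genes above 50-fold was not computed, so this count has no background. Some of these ratios rest on few reads. The mean normalised counts in fat body were 0.983, 2.59 and 0.841 for Ugt37E1 and 1.07, 0.597 and 1.68 for Ugt303B2.

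At the fat body end, Ugt50B3 had 0.512, 1.04 and 1.51 ppm in gut and 15.0, 38.5 and 19.9 in fat body. Ugt36D1 had 5.53, 4.04 and 6.57 ppm in gut and 84.2, 54.5 and 56.7 in fat body, and its neighbour Ugt36E1 had 1.99, 2.58 and 5.17 in gut and 36.1, 45.3 and 30.9 in fat body. Ugt49C1 followed with 5.05, 7.42 and 6.70 ppm in gut and 55.2, 45.2 and 33.1 in fat body. The fat body stood above the gut by 29.4, 37.1 and 13.2 times in Ugt50B3 and by 10.9, 6.09 and 4.95 times in Ugt49C1. For Ugt36E1, Ugt36D1, Ugt49C1 and Ugt50B3 the ratio was smallest in S106>Wdah, the genotype in which the 9 markers called higher in fat body reached the highest share of their fat body level in gut (median 1.63%, 1.83% and 4.34%, up to 7.90%, 16.6% and 19.4%). The part of fat body RNA in the gut levels of these genes was not tested.

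How far the genes higher in gut were expressed in fat body at all was set beside the midgut markers, whose fat body levels were a median of 0.879%, 0.256% and 1.10% of their gut levels and at most 2.38%, 1.53% and 1.45%. In 8 members the fat body level was no more than that highest marker share in every genotype: GstD7, GstD8, Ugt37A2, Ugt303A1, Ugt303B1, Ugt303B2, Ugt304A1 and Ugt305A1. Ugt305A1, for instance, had 53.6, 43.4 and 34.6 ppm in gut and 0.724, 0.214 and 0.248 in fat body. The part of gut RNA in the fat body values of these 8 genes was not tested. The share of all genes within the same limit was not computed. The limit depends on the markers chosen, as the enteroendocrine marker AstA had shares of 3.80%, 1.83% and 2.32%. The other 25 genes higher in gut exceeded the share in at least 1 genotype. Some did so narrowly, such as Ugt37B1, whose fat body level was 1.64%, 1.33% and 1.89% of its gut level. Others lay well above it, for example GstO3, with 15.6%, 13.5% and 13.2%, and Ugt35C1, with 24.8%, 17.9% and 16.0%.

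**Figure D3:**
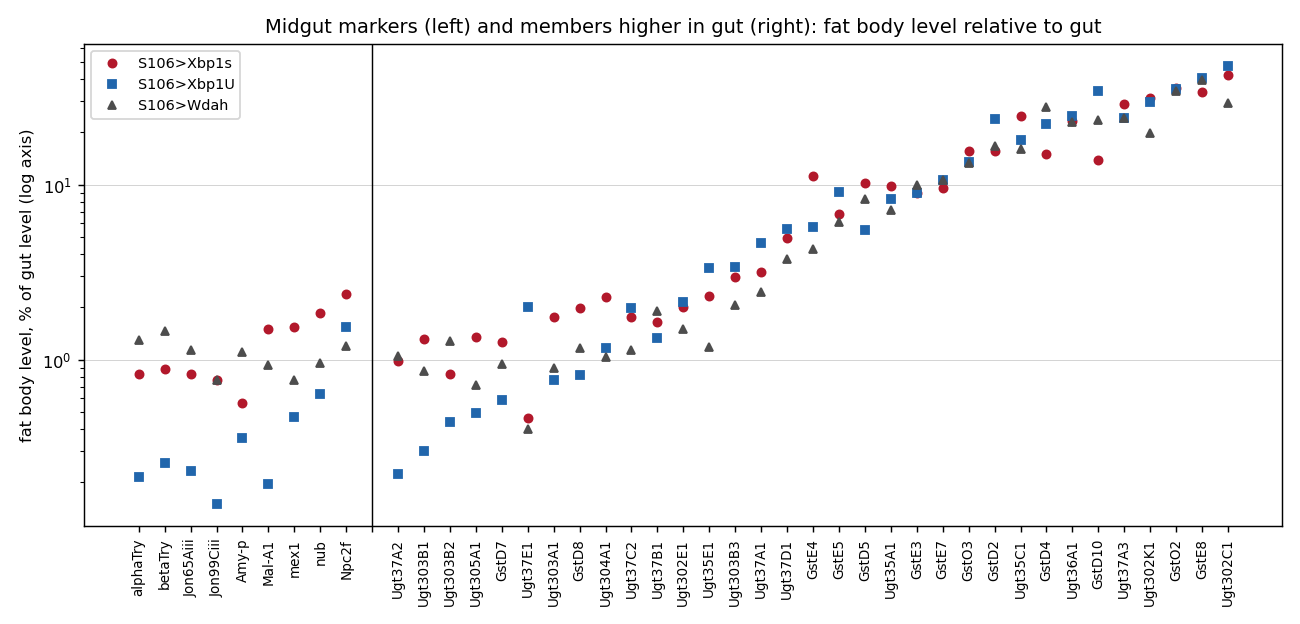
Fat body level as a percentage of gut level (log axis) for 9 midgut markers (left of the line) and the 33 Gst and Ugt genes called higher in gut (right), with 1 point per genotype (circle S106>Xbp1s, square S106>Xbp1U, triangle S106>Wdah). The markers reach at most 2.38%, and the leftmost members lie among them, while GstO3 and Ugt35C1 lie between 13.2% and 24.8%.

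Many members sit next to each other on the chromosome, and 50 of all 70 genes formed 11 runs in which neighbours were at most 20 kb apart. The coordinates are those of dm6 (BDGP6.54 annotation). Genes higher in gut as well as genes higher in fat body were held by 3 of the 11 runs, and by 1, the GstD run, under the median of ratios.

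The GstD run (chromosome 3R, 12364776 to 12385624) held 11 genes, of which 6 were higher in gut, 1 in fat body and 4 in neither. Within it, GstD1 at 461, 518 and 561 ppm in gut and 305, 558 and 857 in fat body lay beside GstD2, which had 15.5, 12.9 and 16.5 in gut and 2.40, 3.05 and 2.75 in fat body. The next gene, GstD3, went the other way, as given above, and GstD5, GstD7 and GstD8 again had the higher level in gut. GstD6 and GstD11 of this run were among the 4 genes under the minimum.

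The GstE run (chromosome 2R, 18396638 to 18409835) held 10 genes, with 5 higher in gut, 1 in fat body and 4 in neither. Its ends were GstE10, which was not called in either tissue, and GstE9, which was abundant in both. Between them, GstE2 at 0.314, 0.305 and 0.329 ppm in gut and 0.435, 0.489 and 0.355 in fat body, and GstE4 at 0.285, 0.614 and 0.771 in gut and 0.0317, 0.0349 and 0.0331 in fat body, were nearly silent on either side of GstE3. GstE3 itself had 321, 366 and 318 ppm in gut and 28.6, 32.7 and 31.7 in fat body. GstE5 had 26.9, 30.5 and 26.7 ppm in gut and 1.83, 2.74 and 1.63 in fat body, and GstE7 had 121, 184 and 175 in gut and 11.6, 19.4 and 18.6 in fat body. The Omega run on chromosome 3L (8518885 to 8524866) was the other mixed one, with GstO3 and GstO2 higher in gut and GstO1 in fat body. GstE1 and GstO1, the genes higher in fat body in these 2 runs, were those that lost their call under the median of ratios.

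All 3 Ugt302 genes, 4 of the 6 Ugt35 genes, Ugt304A1 and Ugt303A1 shared a run of 9 genes (chromosome 3R, 11151026 to 11177910), in which 7 were higher in gut, 0 in fat body and 2 in neither. The 2 were Ugt35E2, at 0.240, 0.376 and 0.527 ppm in gut and 0.190, 0.377 and 0.238 in fat body, and Ugt35B1, at 4.01, 15.5 and 15.2 in gut and 14.4, 17.5 and 7.86 in fat body. Ugt35A1, the neighbour of Ugt35B1 on the same strand, had 187, 175 and 150 ppm in gut and 18.4, 14.5 and 10.8 in fat body. The 3 genes of the Ugt37 run on chromosome 2L (16794211 to 16801584), the 3 Ugt303B genes on 3R (23532945 to 23538908) and the pair Ugt37A2 and Ugt37A3 were all higher in gut. Both genes of the Ugt49 run on 2R (21212880 to 21217779) were higher in fat body, Ugt49C1 alone under the median of ratios.

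**Figure D4:**
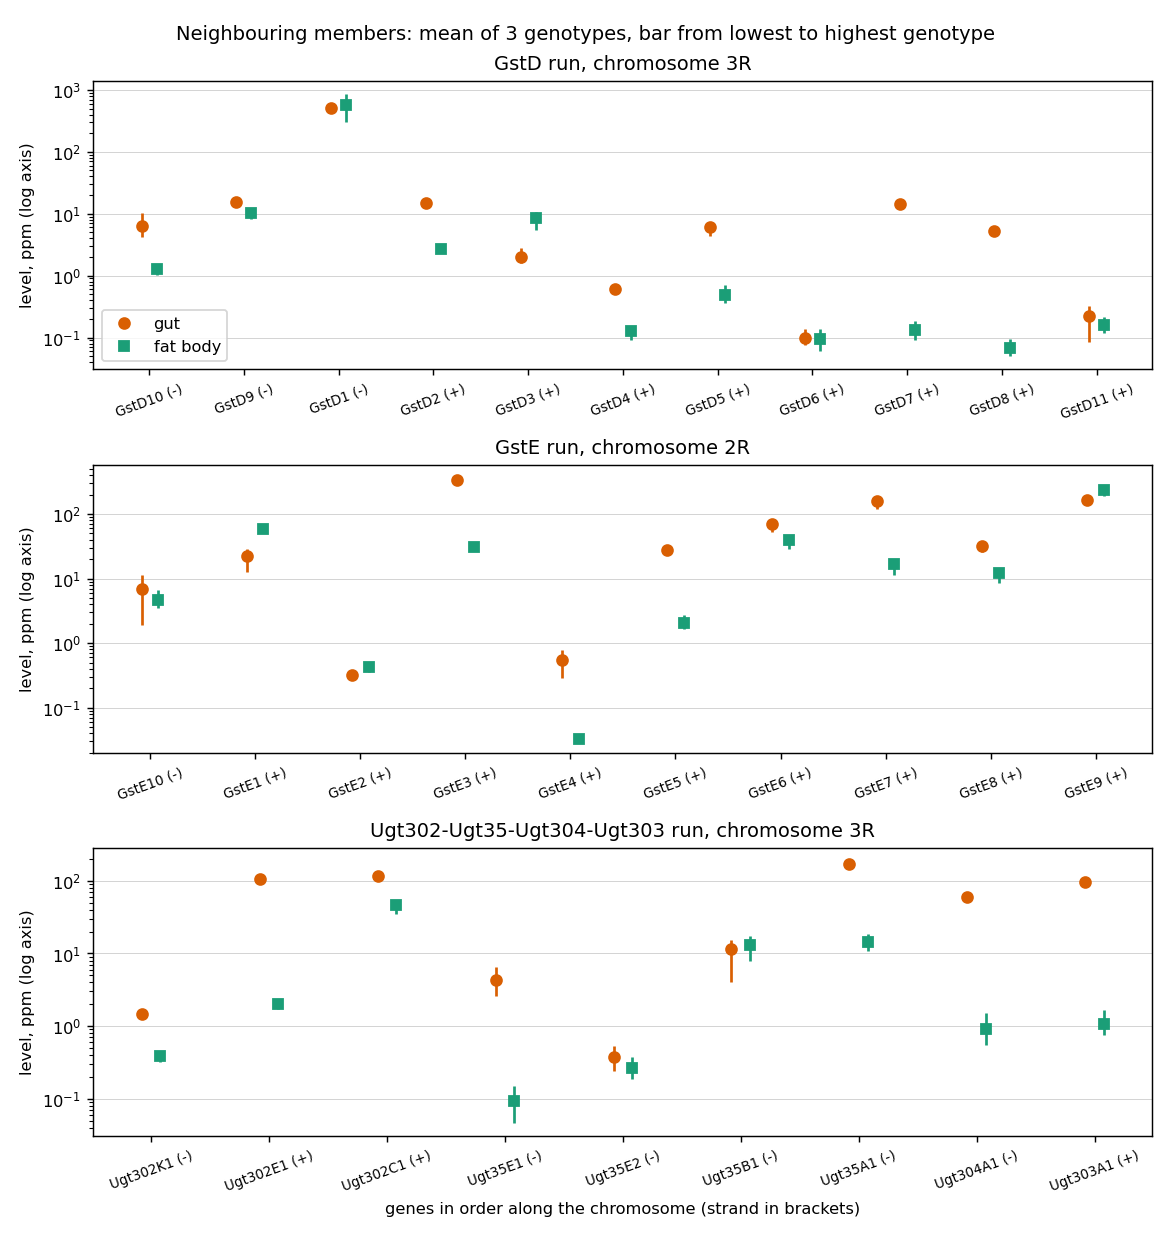
Level in ppm (log axis) in gut (circles) and fat body (squares) of neighbouring genes in 3 runs, in their order along the chromosome, with the strand in brackets. Points are means of 3 genotypes and bars span the lowest to the highest genotype. GstD3 lies on the other side from GstD2 and GstD5, GstE3 stands far above GstE2 and GstE4, and 7 of the 9 genes of the lowest panel have the gut point well above the fat body point.

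Between genotypes the members differed less than between tissues. Each genotype's mean mixes RU+ and RU- libraries, so a difference between genotypes may come from the strain, the transgene or the response to RU486, and these cannot be told apart here. Among members that reached 5 ppm in at least 1 genotype, the highest genotype was more than 2-fold above the lowest in 7 of 53 (13.2%) in gut, where 8.90% of all genes were, and in 4 of 38 (10.5%) in fat body, where 7.55% were. The median of the highest over the lowest genotype was 1.39 over the members and 1.24 over all genes in gut, and 1.55 and 1.31 in fat body.

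In gut, 5 of the 7 genes were lowest in S106>Xbp1s. How many of all genes over the same limit were lowest in that genotype was not computed, so this count has no background. GstE10 had 1.92 ppm in S106>Xbp1s and 7.57 in S106>Xbp1U, against 11.4 in S106>Wdah, a 5.95-fold range. Ugt35B1 had 4.01 in S106>Xbp1s and 15.5 in S106>Xbp1U, against 15.2 in S106>Wdah. Ugt36E1 had 1.99 ppm in S106>Xbp1s and 2.58 in S106>Xbp1U, against 5.17 in S106>Wdah. GstE1 had 12.7 ppm in S106>Xbp1s and 25.8 in S106>Xbp1U, against 28.3 in S106>Wdah, and Ugt35C1 had 250 ppm in S106>Xbp1s and 532 in S106>Xbp1U, against 366 in S106>Wdah. The remaining genes, GstD10 and Ugt35E1, were highest in S106>Xbp1s gut. GstD10 had 10.3 ppm in S106>Xbp1s and 4.15 in S106>Xbp1U, against 4.30 in S106>Wdah, and Ugt35E1 had 6.57 in S106>Xbp1s and 2.58 in S106>Xbp1U, against 3.90 in S106>Wdah.

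Marker lists of other tissues also differed between the gut tables, and not all in the same order. The 8 Malpighian tubule markers summed to 114 ppm in S106>Xbp1s gut and 188 in S106>Xbp1U gut, against 239 in S106>Wdah gut, and Uro, which encodes the urate oxidase of the tubule, had 13.0 ppm in S106>Xbp1s and 45.5 in S106>Xbp1U, against 62.9 in S106>Wdah. Of these 8 markers 5 were lowest in S106>Xbp1s and highest in S106>Wdah, while Irk1 and Oatp58Da were lowest in S106>Xbp1U and Irk2 was lowest in S106>Wdah. In gut the 7 ovary markers summed to 6.59 ppm in S106>Xbp1s and 25.2 in S106>Xbp1U, against 134 in S106>Wdah, and the fat body marker Yp1, a yolk protein gene, had 174 in S106>Xbp1s and 318 in S106>Xbp1U, against 510 in S106>Wdah. All 7 ovary markers, all 4 hemocyte markers and 7 of 10 fat body markers had that order in gut, and the fat body marker Fst had the opposite one, with 845 ppm in S106>Xbp1s and 392 in S106>Xbp1U, against 382 in S106>Wdah. The 6 muscle markers summed to 1555 ppm in S106>Xbp1s gut and 1366 in S106>Xbp1U gut, against 1307 in S106>Wdah gut. GstE10, GstE1 and Ugt36E1 followed the order of Uro, S106>Xbp1s lowest and S106>Wdah highest, while Ugt35B1 and Ugt35C1 were highest in S106>Xbp1U. The part of these other tissues in the members' gut levels was not tested.

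In fat body, GstD1 differed most, with 305 ppm in S106>Xbp1s and 558 in S106>Xbp1U, against 857 in S106>Wdah, a 2.81-fold range. Ugt50B3 had 15.0 ppm in S106>Xbp1s and 38.5 in S106>Xbp1U, against 19.9 in S106>Wdah. GstZ2 had 42.6 ppm in S106>Xbp1s and 32.8 in S106>Xbp1U, against 17.2 in S106>Wdah, and Ugt35B1 had 14.4 in S106>Xbp1s and 17.5 in S106>Xbp1U, against 7.86 in S106>Wdah. No other member at this level reached 2-fold in fat body, and GstD1 alone accounts for most of the step in the Delta class, whose sum was 324 in S106>Xbp1s and 585 in S106>Xbp1U, against 883 ppm in S106>Wdah. Marker lists differed between the same fat body tables. The fat body markers summed to 106532 ppm in S106>Xbp1s and 93949 in S106>Xbp1U, against 64044 in S106>Wdah, the 6 muscle markers to 2613 in S106>Xbp1s and 1952 in S106>Xbp1U, against 1474 in S106>Wdah, and the 4 hemocyte markers to 135 in S106>Xbp1s and 86.3 in S106>Xbp1U, against 73.5 in S106>Wdah. GstZ2 had the order of these sums, and GstD1 the opposite one. Other lists had other orders in fat body. The 8 tubule markers summed to 183 ppm in S106>Xbp1s and 216 in S106>Xbp1U, against 129 in S106>Wdah, the order of Ugt35B1. In the same sequence of genotypes, the 9 midgut markers summed to 626, 154 and 667 ppm. The 7 ovary markers summed to 2546, 1627 and 2247 ppm, and the 4 enteroendocrine markers to 5.73, 1.88 and 2.47 ppm. The part of these tissues in the members' fat body levels was not tested.

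**Figure D5:**
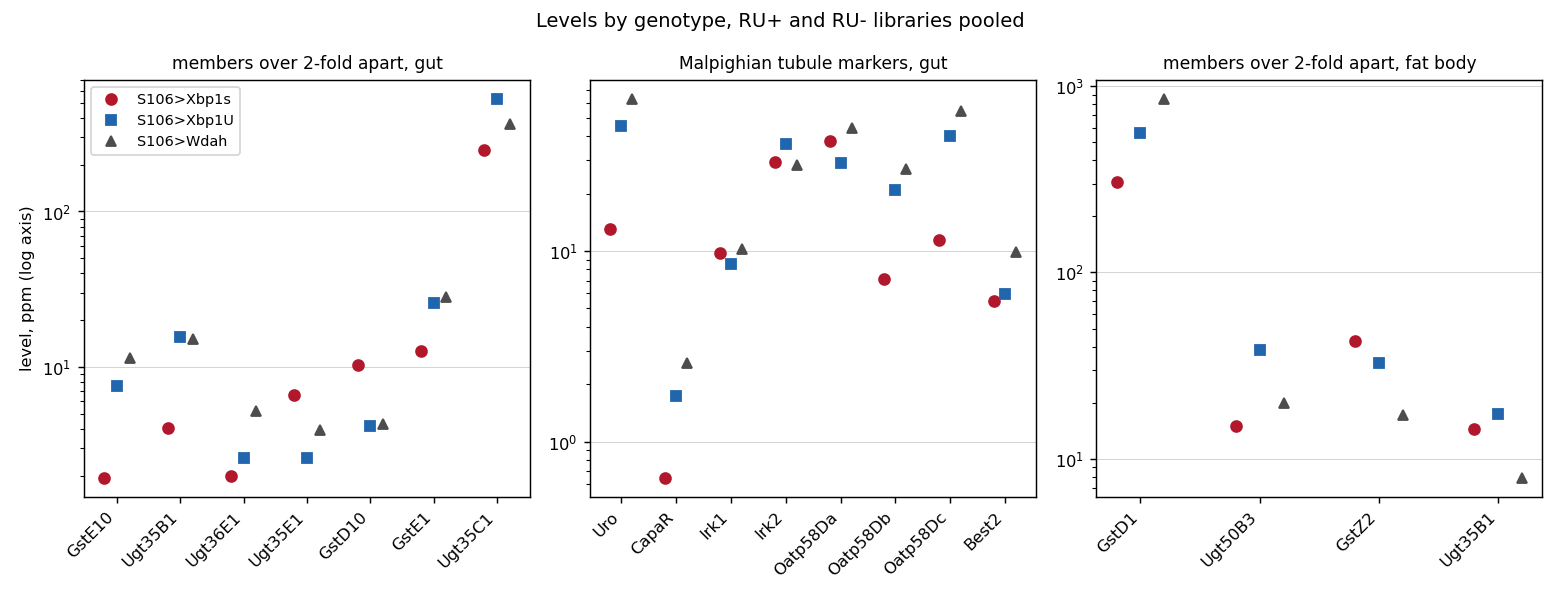
Level in ppm (log axis) by genotype, RU+ and RU- libraries pooled, for the members more than 2-fold apart in gut (left), 8 Malpighian tubule markers in gut (middle) and the members more than 2-fold apart in fat body (right). Circles are S106>Xbp1s, squares S106>Xbp1U and triangles S106>Wdah. GstE10, Ugt36E1 and GstE1 rank the genotypes as 5 of the 8 tubule markers do, with S106>Xbp1s lowest and S106>Wdah highest, Irk1, Irk2 and Oatp58Da rank them otherwise, and GstD1 in fat body has S106>Xbp1s lowest and S106>Wdah highest.

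Pathways around these enzymes were covered by 19 genes for glutathione, UDP-sugars, their export and the regulators of detoxification, all measured. Of these, 5 were higher in gut, 2 in fat body and 12 in neither, beside 12.7% and 27.7% of all genes higher in gut and in fat body. Under the median of ratios 9 were higher in gut, with Gclm, Gss1, Trxr1 and MRP added, and 2 in fat body, beside 16.7% and 19.8% of all genes. Gclc, the catalytic subunit of the enzyme that limits glutathione synthesis, had 359, 370 and 259 ppm in gut and 145, 114 and 109 in fat body. Its modifier subunit Gclm was called under the median of ratios only, with 192, 217 and 252 ppm in gut and 127, 145 and 145 in fat body. Of the glutathione synthetase genes, Gss1 was called higher in gut under the median of ratios only, and Gss2 was called in neither tissue under both scalings.

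The UDP-sugar genes UGP and sgl went in opposite directions. UGP, which makes UDP-glucose, had 42.4, 62.1 and 75.8 ppm in gut and 787, 800 and 596 in fat body, the strongest lean towards fat body in the list. The next enzyme, sgl, the UDP-glucose dehydrogenase that makes UDP-glucuronate, had 170, 141 and 118 ppm in gut and 38.8, 35.1 and 41.5 in fat body. UGP thus stood opposite to the Ugt genes as a family, and sgl stood on their side, each as a single gene. Which UDP-sugar the Ugt enzymes use was not tested.

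Among the regulators, Keap1, which holds the stress factor CncC in check, had 67.4, 55.8 and 68.2 ppm in gut and 30.8, 27.4 and 22.9 in fat body. The xenobiotic receptor gene Hr96 had 82.4, 79.7 and 80.0 ppm in gut and 29.3, 26.1 and 32.6 in fat body. The gene of CncC itself, cnc, differed little, at 348, 375 and 441 ppm in gut and 414, 367 and 351 in fat body. The transporter gene MRP, an exporter of conjugates, had 197, 268 and 223 ppm in gut and 108, 108 and 99.4 in fat body, and was called higher in gut under the median of ratios only. The last called genes were low: se, an Omega class enzyme of eye pigment synthesis, had 0.767, 0.639 and 0.672 ppm in gut and 0.339, 0.315 and 0.182 in fat body, and the peroxiredoxin gene Prx6b had 1.41, 1.54 and 1.82 ppm in gut and 13.4, 15.7 and 9.15 in fat body.

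Exons of 12 members overlapped another gene on the opposite strand, the most in GstT2 (223 bp with CG12926, 25.1% of its exons) and Ugt36A1 (400 bp with CG15418, 17.4%). Whether the counting used strand, and how reads matching several of these similar genes were placed, is not given in the sources used here, so levels of close relatives within a run may share reads.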

How the data were processed

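RNA of gut and fat body was measured in 48 libraries of 12 groups. Per the methods and processing notes, the authors checked reads with FastQC, aligned them to dm6 with HISAT2, counted them over exons with featureCounts, removed 4 samples that clustered apart, and tested RU+ against RU- for each genotype in each tissue with DESeq2. The deposited signal is the mean, over both groups, of counts divided by size factors, in a table per genotype and tissue. These are pooled values of the authors, with no SD or n. The other deposited columns hold the authors' own comparison (fold changes, standard errors, test statistics, p-values and adjusted p-values) and were not used, so the RU+ against RU- change is not given. A count test per library, as designed, could not be run.

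Tables were normalised separately. Each mean was divided by its table's sum over the 16160 genes listed in all 6 tables, in parts per 1000000 (ppm), and levels per kb used the exonic length of BDGP6.54 (Ensembl release 115). A symbol was found for 16151 of 16185 identifiers. The 25 genes missing from at least 1 table were left out, and 0 of them were members. The summed means given above stand for depth, and that of single libraries is unknown. Log2 values used a pseudocount of 1, and tissue calls a fold of 2 in all 3 genotypes. Genotype ratios needed 5 ppm.

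Members and lists were chosen with earlier results of these data known. By name the text gives the 5 highest members per kb of each family and tissue, the 4 furthest towards each tissue, the 3 with the largest genotype ratio in each tissue and those beside the minimum; others were chosen after their values were seen. Alternatives were the median of ratios, a 4-fold limit, a mean of 50 or no minimum, pseudocounts of 5 and 0.1, each genotype left out, and, chosen after seeing the data, members with overlapping exons left out. Promoter motifs and protein sequences were not analysed here. The scripts were tested on simulated tables. Python 3.11.15, numpy 2.4.6, pandas 2.3.3 and matplotlib 3.10.9 were used.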

Additional observations from a re-analysis of the deposited data

How the results depend on the processing

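No result of the families changed sign under the alternatives. With the median of ratios, 3 in place of 5 Gst genes were higher in fat body, the median differences were 0.62 (Gst, 0.29 before) and 2.39 (Ugt, 1.93 before), and the summed levels in ppm were 3680 for Gst genes in gut (3137 before), 1795 for Gst genes in fat body (2168 before) and 2259 for Ugt genes in gut (1924 before). Of the 19 pathway genes 9 in place of 5 were higher in gut, and 1 in place of 3 runs held both directions. This scaling shifts every gene of a table together. With a 4-fold limit, 2 Gst genes were higher in fat body, beside 13.7% of all genes. At that limit 1 member in gut and 0 in fat body differed between genotypes, in place of 7 and 4. The share of all genes was not computed for these genotype counts. The median difference of Ugt genes was 2.50 with a mean of at least 50, 1.80 with no minimum, 1.27 with a pseudocount of 5 and 2.07 with a pseudocount of 0.1. That of Gst genes was 0.070 with no minimum, 0.13 with a pseudocount of 5 and 0.48 without S106>Xbp1s. Over all genes the median was -0.064 with no minimum, -0.26 with a pseudocount of 5 and -0.43 without S106>Xbp1s. It was -0.50 with a mean of at least 50 and -0.56 with a pseudocount of 0.1. With no minimum the Gst genes thus lay close to all genes. Without the members whose exons overlap another gene, an alternative chosen after the data were seen, the medians were 0.57 (Gst) and 2.29 (Ugt). Leaving out S106>Xbp1U or S106>Wdah moved none of these values by more than the spread between genotypes.

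No paired analysis was possible because each table gives means over libraries only, and for the same reason no replicate was left out. A mean under 10 rests on few reads per library. Ratios of low genes such as GstD8, GstE4, GstE14, Ugt35D1, Ugt37C1, Ugt37E1 and Ugt303B2 are therefore the least certain. The 3 genotypes differ in transgene, and each mean mixes RU+ and RU- libraries, so their agreement is no measure of error.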
